A study of Solanum lycopersicum with 6 samples.

Results

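The ACC oxidase genes of tomato and the ethylene-induced genes E4 and E8 were followed in leaf discs treated with loliolide, a lactone formed from carotenoids. The genes were those whose symbol or synonym in the RefSeq gene table is ACO with a number, E4 or E8, and every array probe carrying a transcript accession of such a gene was used. This gave 9 genes, of which 6 had a matched probe among the 1191 RefSeq genes matched on the array. The 6 genes were ACO1, ACO4, ACO5, ACO6, EFE and E8, with 12 probes in all. Genes without a matched probe, among them ACO3 and MSRA, which carries the synonym E4, were not analysed here. The table gives gene names without descriptions. It lists EFE (gene 544285) with the synonyms ACO3 and ACO4, E8 (gene 543524) with E8-6, and ACO3 (gene 101268031) with a synonym that also contains E8, so the names of this family overlap. Which of these genes is the E8 described in ripening fruit is not settled by the table, and E8 below means gene 543524.

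Plants of the dwarf cultivar Micro-Tom were 4 weeks old. Discs of 1 cm from their leaves floated for 12 h in continuous light at 25 °C, either on 300 µM loliolide or on 0.1% methanol. Each of the 6 samples, 3 with loliolide and 3 with methanol, was measured on its own 1-colour Agilent array. The replicates carry numbers but no label ties them to separate plants, and the spread behind each p-value is that of these 6 samples and may be technical. In whole discs, fewer cells of a type and less RNA per cell cannot be told apart.

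Ethylene is made from methionine by way of S-adenosylmethionine and ACC. ACC synthases make ACC, and ACC oxidases turn it into ethylene with iron and ascorbate as helpers, the last step of the route. ACC oxidases belong to a large family of iron-dependent dioxygenases. E8 encodes a related dioxygenase and E4 a methionine sulfoxide reductase, and both are known as transcripts that ethylene induces in ripening tomato fruit. Ethylene binds receptors of the ETR family, which act through CTR kinases, EIN2 and the EIL transcription factors on genes such as those of the ERF factors.

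Signals are given below as log2 of the background-subtracted intensity relative to the 75th percentile of the same array, so that 0 is the signal of that percentile and negative values are dimmer. Between 84.5% and 87.62% of the spots per array were well above background. Precision is limited by the number of arrays. The 3 methanol arrays lay on one slide and the 3 loliolide arrays on another, and in every difference below the treatment and the slide cannot be told apart. The 10 E1A spike-in controls were all brighter with loliolide on this scale, by 0.23 to 1.25. Their median was 0.61, 0.48 and 0.91 on loliolide replicates 1, 2 and 3, and 0.42, 0.30 and 0.39 on the methanol arrays. As a check of the tissue, all 9 probes of the chlorophyll-binding protein genes CAB4 and CAB6A were well above background on all 6 arrays. Of the 12 probes of the fruit genes PG2 and 2A11, 11 were not well above background on any array. The other, a dim PG2 probe, was well above background on 1 methanol array and all 3 loliolide arrays. Of the 2 probes of pollen and flower genes, 1 was well above background on 2 arrays and the other on none. The 5 probes of the root gene RSI-1 and the seed gene LEA14 were well above background on all 6 arrays, as those of CAB4 and CAB6A were.

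None of the 9 detected probes of these genes passed the test for a difference between loliolide and methanol. This count of 0 of 9 at a limma adjusted p of 0.05 stood beside 0.783% of all 37424 tested probes. At an unadjusted limma p under 0.05 it was 1 of 9, a probe of E8, against 20.1% of all tested probes. The log2 differences of the 9 probes ranged from -0.39 to 0.38 with a median of -0.06, while the median of all tested probes was 0.06. The signal was higher with loliolide for 4 of the 9 probes and for 60.8% of all tested probes. With the arrays scaled to the spike-in controls it was higher for 1 of the 9, their median was -0.36 and that of all tested probes -0.24. This scaling subtracts 1 value per array and so shifts these probes and the other ethylene genes alike. Its results given below gene by gene are that same shift and not separate checks. The 3 other probes, that of ACO5 and 2 of the 3 of E8, were not well above background on any array and were not tested. None of the 12 probes is among the 27 loliolide-responsive probes of the authors' deposited table. Those are 27 of 43603 probes, so few sets of 12 probes would hold one. All 27 were higher with loliolide, so absence from that table says nothing about a lower signal.

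**Figure D1:**
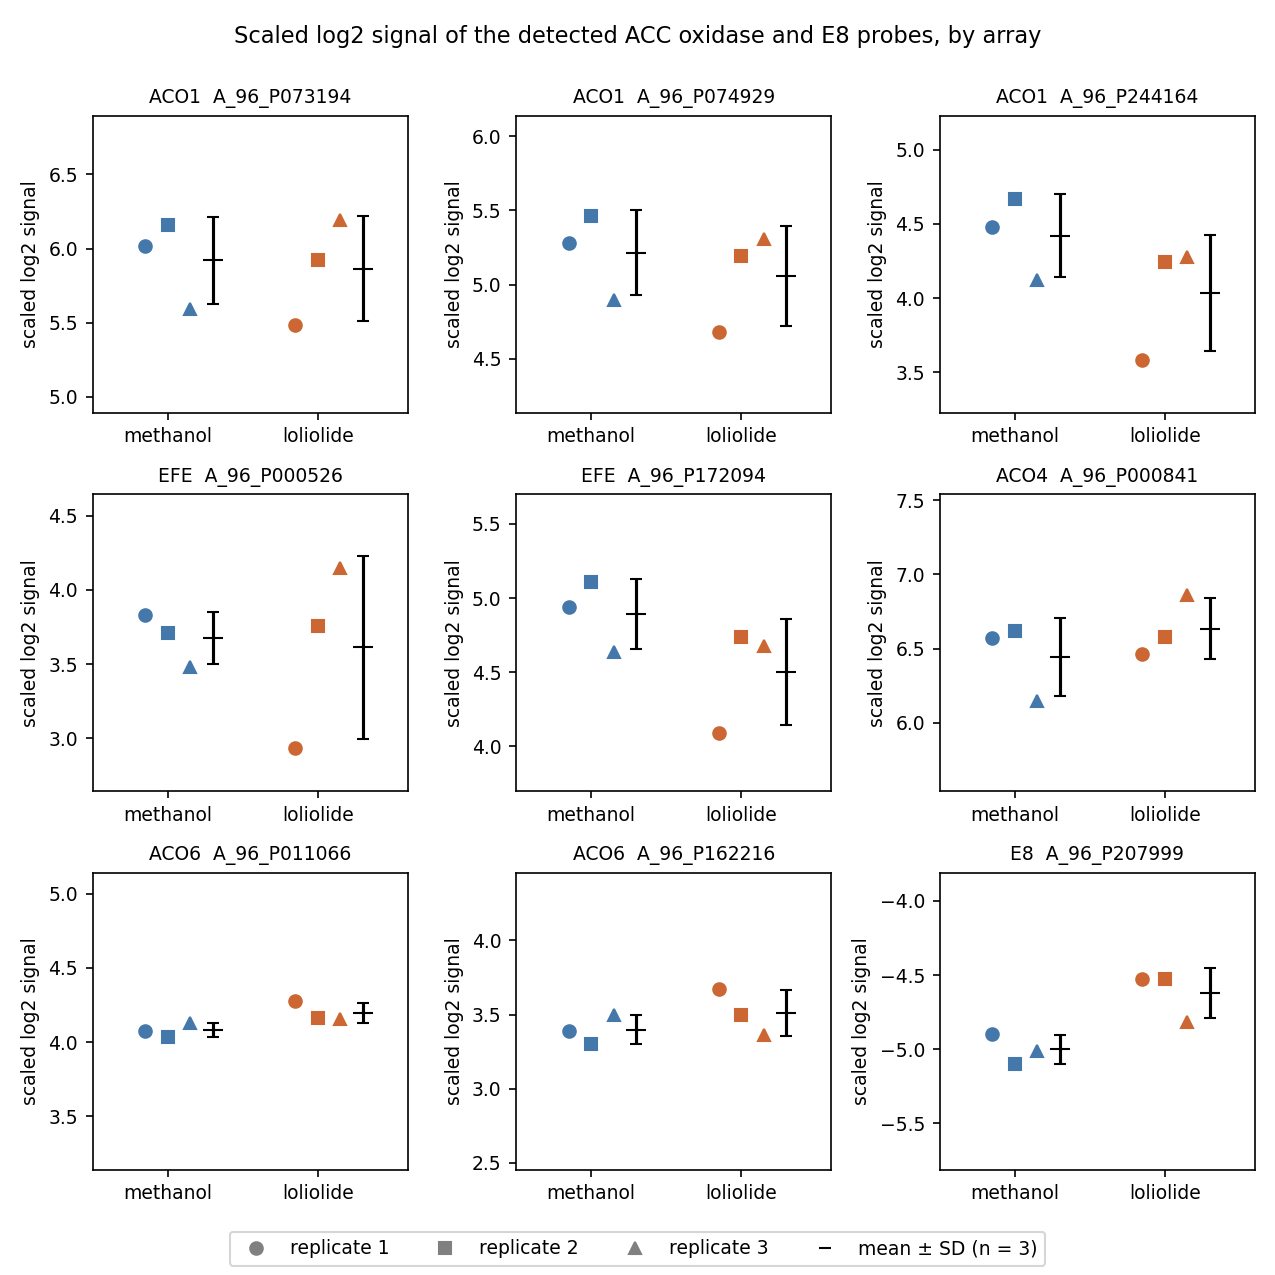
Scaled log2 signal (vertical axis, each panel spanning 2 log2 units) of the 9 detected probes on the 3 methanol and 3 loliolide arrays, with the mean and SD of each group beside the points. The groups overlap for 7 probes, and the loliolide arrays all lie above the methanol arrays for 1 probe of ACO6 and 1 of E8.

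**Figure D2:**
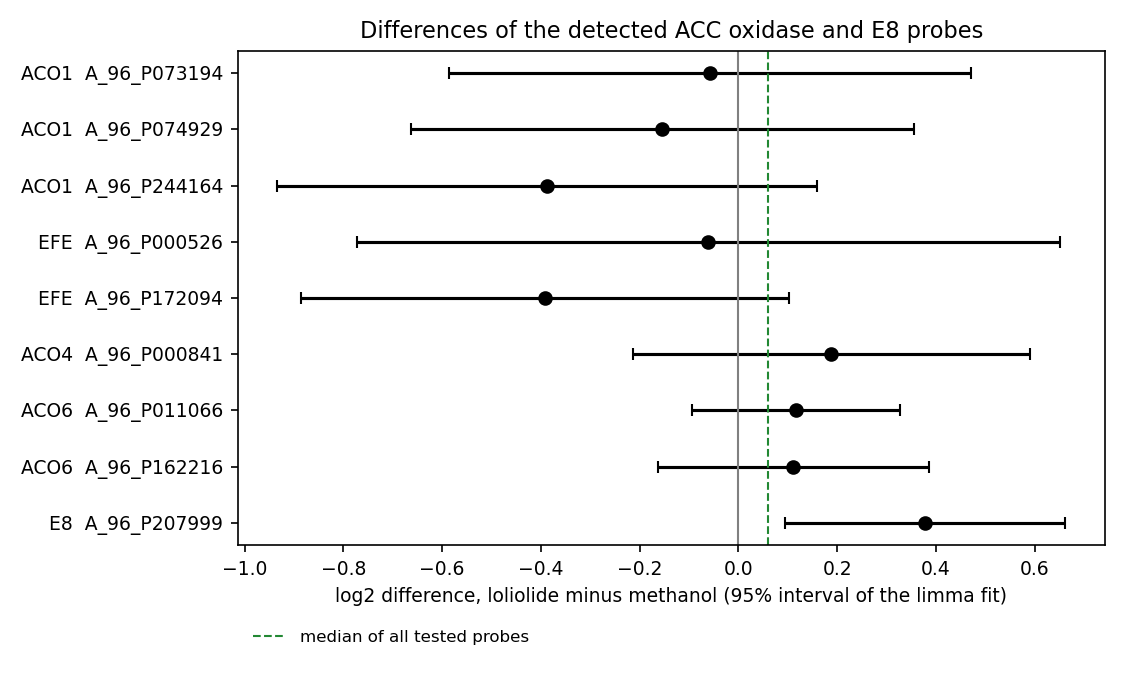
Log2 difference of loliolide minus methanol for the same 9 probes (horizontal axis), with bars for the 95% interval of the limma fit and a dashed line at the median of all tested probes, 0.06. The bar of the E8 probe lies above 0 and the bars of the 8 ACC oxidase probes cross 0.

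ACO1 (gene 544052) is the ACC oxidase also known as pTOM13, the clone through which this enzyme was recognised in tomato. Its probe A_96_P073194 read 6.02, 6.16 and 5.59 on the methanol arrays and 5.48, 5.92 and 6.19 on the loliolide arrays. The groups overlapped, with the lowest and the highest of the 6 values both from loliolide arrays. The difference was -0.06 (SE 0.22, limma adjusted p = 0.911), and its 95% interval of 0.667- to 1.39-fold bounds the change that this probe allows.

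The probe A_96_P074929 of ACO1 read 5.28, 5.46 and 4.90 with methanol and 4.68, 5.19 and 5.31 with loliolide. Its difference was -0.15 (SE 0.21, limma adjusted p = 0.721). The third probe, A_96_P244164, read 4.48, 4.67 and 4.12 with methanol and 3.58, 4.24 and 4.27 with loliolide. Its difference was the lowest of the 3, at -0.39 (SE 0.23, limma adjusted p = 0.379), and its groups also overlapped. It was -0.16 without loliolide replicate 1 and -0.69 with the spike-in scaling. The sign of the first 2 probes turned with single arrays left out. Without loliolide replicate 1 the differences of A_96_P073194 and A_96_P074929 were 0.13 and 0.037, and without methanol replicate 2 that of A_96_P073194 was 0.06.

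EFE takes its symbol from the ethylene-forming enzyme, the older name of ACC oxidase, and in the RefSeq assembly it lies close to ACO1 with 1 annotated gene between them. Its probe A_96_P172094 read 4.94, 5.11 and 4.64 with methanol and 4.09, 4.74 and 4.68 with loliolide. Loliolide replicate 1 lay below the methanol range and the other loliolide arrays within it. The difference was -0.39 (SE 0.21, limma adjusted p = 0.332), -0.19 without loliolide replicate 1 and -0.69 with the spike-in scaling. The other probe, A_96_P000526, read 3.83, 3.71 and 3.48 with methanol and 2.93, 3.76 and 4.15 with loliolide. Here the loliolide arrays held both the lowest and the highest value, with an SD of 0.62 (n = 3) against 0.18 (n = 3) for methanol. The difference was -0.06 (SE 0.30, limma adjusted p = 0.931), 0.28 without loliolide replicate 1 and 0.02 without methanol replicate 1.

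ACO4 (gene 543506) is an ACC oxidase measured by a single probe, A_96_P000841. It read 6.57, 6.62 and 6.14 with methanol and 6.46, 6.58 and 6.86 with loliolide. The groups overlapped. The difference was 0.19 (SE 0.17, limma adjusted p = 0.563), with a 95% interval of 0.862- to 1.51-fold, and turned to -0.11 when the arrays were scaled to the spike-in controls. The unscaled intensity of the probe lay between 78762 and 109770 on the methanol arrays and between 92262 and 103541 on the loliolide arrays, and no spot of a non-control probe was saturated.

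ACO6 (gene 100125909), another member of the ACC oxidase family, gave the tightest measurement. Its probe A_96_P011066 read 4.08, 4.04 and 4.13 with methanol and 4.28, 4.17 and 4.15 with loliolide. The 3 loliolide values all lay above the methanol values, by a gap smaller than the range within either group. The difference was 0.12 (SE 0.09, limma adjusted p = 0.487), and the 95% interval ran from 0.938- to 1.25-fold. Before scaling, loliolide replicate 3 was the lowest of the 6 arrays for this probe, at an intensity of 14553. Its other probe, A_96_P162216, read 3.39, 3.30 and 3.50 with methanol and 3.67, 3.49 and 3.36 with loliolide, a difference of 0.11 (SE 0.12, limma adjusted p = 0.620) with groups that overlapped. With the spike-in scaling both ACO6 probes were lower with loliolide, at -0.18 and -0.19.

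ACO5 (gene 543800) was not well above background on any array with its single probe. The intensity of this probe was 1.49 to 3.97 with methanol and 1.17 to 3.74 with loliolide. No difference is given, since neither group was well above background.

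E8 showed the highest difference of the set, in the 1 of its 3 probes that was detected. The probe A_96_P207999 read -4.90, -5.10 and -5.01 with methanol and -4.53, -4.52 and -4.82 with loliolide. The 3 loliolide values lay above the 3 methanol values, a pattern found for 2 of the 9 probes here and, in either direction, for 29.5% of all tested probes. The difference was 0.38 (SE 0.12), or 1.30-fold with a 95% interval of 1.07- to 1.58-fold. It did not pass over all probes (limma adjusted p = 0.163).

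This E8 probe was dim, and its separation arose after scaling. Its intensity was 32.7 to 37.1 with methanol and 45.5, 47.1 and 29.0 on loliolide replicates 1, 2 and 3. Loliolide replicate 3, the lowest of the 6 before scaling, was the array with the lowest 75th percentile, 817.5 against 1047 to 1117 on the others. Dim probes were higher with loliolide across the array: of the dimmest 9356 tested probes 75.9% were higher, with a median difference of 0.25, against 58.9% and 0.03 for the brightest 9356. The tested probes include some detected in 1 group only. More spots were well above background with loliolide, 86.93% to 87.62% against 84.5% to 85.3% with methanol. The part of this filter in the 75.9% was not tested. The difference of the E8 probe was 0.19 with quantile normalisation, 0.14 with cyclic loess, 0.33 with median centring, 0.25 with the normexp background correction and 0.08 with the spike-in scaling (limma adjusted p 0.201 to 0.800 over these 5). The part of these shifts in the E8 difference was not tested.

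The 2 other probes of E8 gave no signal above background. A_96_P154561 had an intensity of 1.78 to 2.09 with methanol and 1.38 to 1.82 with loliolide. A_96_P241441 had 1.77 to 3.83 with methanol and 1.37 to 5.50 with loliolide. Of the 3 probes assigned to the same E8 transcript, 1 was therefore detected on all 6 arrays and 2 on none.

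The ACC oxidase probes differed in how much they varied between arrays of the same group. The within-group SD of the 3 ACO1 probes was 0.31 to 0.34 and that of the 2 EFE probes 0.30 and 0.45, against a median of 0.17 over all tested probes. Those of ACO6 were 0.06 and 0.13, that of ACO4 0.23 and that of E8 0.14. ACO1 and EFE thus lay above 82.2% to 94.4% of the tested probes in spread, whereas A_96_P011066 of ACO6 lay above 5.52%.

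ACO1, EFE and ACO4 shared the lowest array of each group. They are set apart from ACO6 and E8 on these same values, so the counts that follow are no test of the grouping. How many of all tested probes have this order was not computed. For all 6 of their probes methanol replicate 3 was the lowest methanol array and loliolide replicate 1 the lowest loliolide array. The highest loliolide array was replicate 3 for 5 of the 6, and replicate 2 for A_96_P172094 of EFE. The highest methanol array was replicate 2, except for A_96_P000526 of EFE, where it was replicate 1. On loliolide replicate 1 the deviations of the 3 ACO1 probes from their own means over the 6 arrays were -0.41, -0.46 and -0.64 and those of the 2 EFE probes -0.60 and -0.71, while that of ACO4 was -0.08. For all 3 probes of ACO6 and E8, in contrast, loliolide replicate 3 was the lowest of its group. The deviations are a description of 6 arrays, and probes of the same family may share target sequence, which was not tested because no probe sequences were used here.

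**Figure D3:**
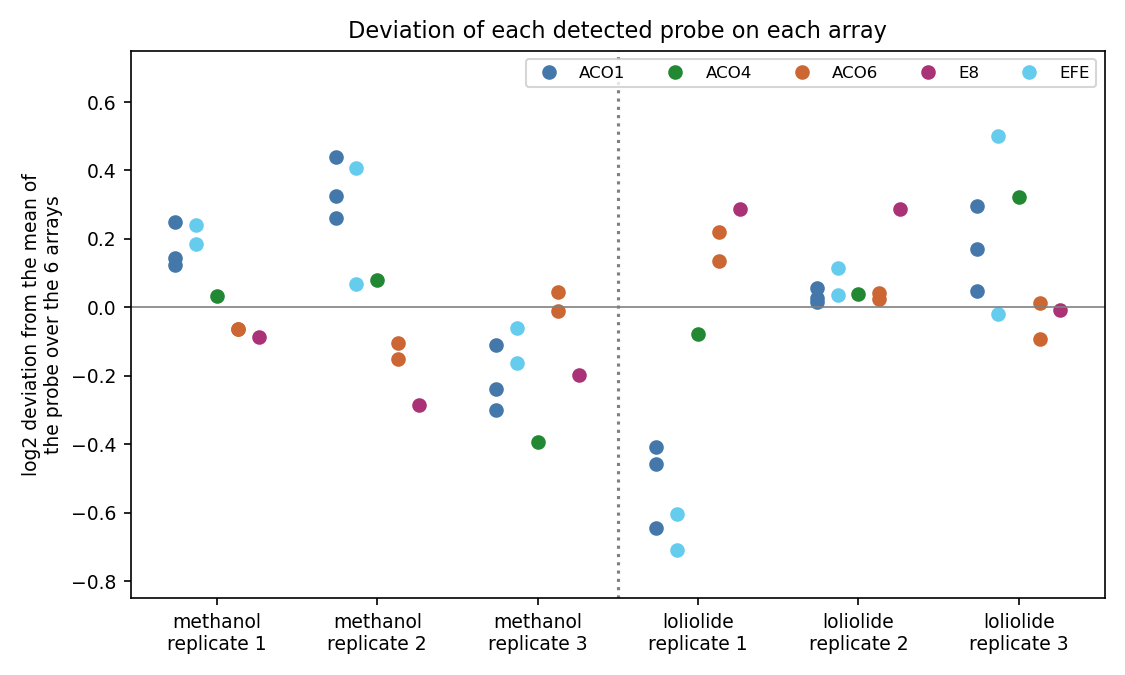
Log2 deviation of each detected probe from its own mean over the 6 arrays (vertical axis), by array (horizontal axis) and coloured by gene. The ACO1 and EFE probes lie lowest on loliolide replicate 1, where the ACO6 and E8 probes lie above 0.

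Probes of the same gene were then compared within each array, which removes any factor that scales a whole array. The 3 genes with more than 1 detected probe gave 5 such pairs. The ratio of A_96_P073194 to A_96_P244164 of ACO1 was 1.54, 1.49 and 1.47 on the log2 scale with methanol and 1.90, 1.68 and 1.92 with loliolide. All 3 loliolide values lay above the methanol values, a difference of 0.33 in this ratio. The ratio of A_96_P074929 to A_96_P244164 was 0.80, 0.79 and 0.78 with methanol and 1.09, 0.95 and 1.03 with loliolide, a difference of 0.23, again with no overlap. In both pairs the exact permutation test gave p = 0.1, two-sided, the smallest value that 3 arrays against 3 allow, and an adjusted p of 0.25 over the 5 pairs. The A_96_P244164 probe of ACO1 thus read lower with loliolide relative to both other ACO1 probes on all 3 loliolide arrays. Both ratios contain this probe, so they are not separate observations. Among single tested probes the groups did not overlap for 29.5%, and the share among pairs of probes of the same gene was not computed. The groups also did not overlap with quantile normalisation, cyclic loess or normexp, which were applied to these ratios after the data were seen and do not cancel in them, with differences of 0.25 to 0.34 and of 0.20 to 0.23. The ratio of A_96_P073194 to A_96_P074929 differed by 0.10, with groups that overlapped (exact permutation p = 0.2), and that did not overlap with normexp (0.11).

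The log2 ratio of the ACO6 probes was 0.68 ± 0.05 with methanol and 0.69 ± 0.10 with loliolide, with groups that overlapped (SD, n = 3 each, exact permutation p = 1). The log2 ratio of the EFE probes, A_96_P000526 to A_96_P172094, was -1.11, -1.39 and -1.16 with methanol and -1.16, -0.98 and -0.53 with loliolide. These groups overlapped (difference of 0.33, exact permutation p = 0.3), and they did not overlap after quantile normalisation. Which ACO1 or EFE probe follows its transcript best cannot be read from these ratios.

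**Figure D4:**
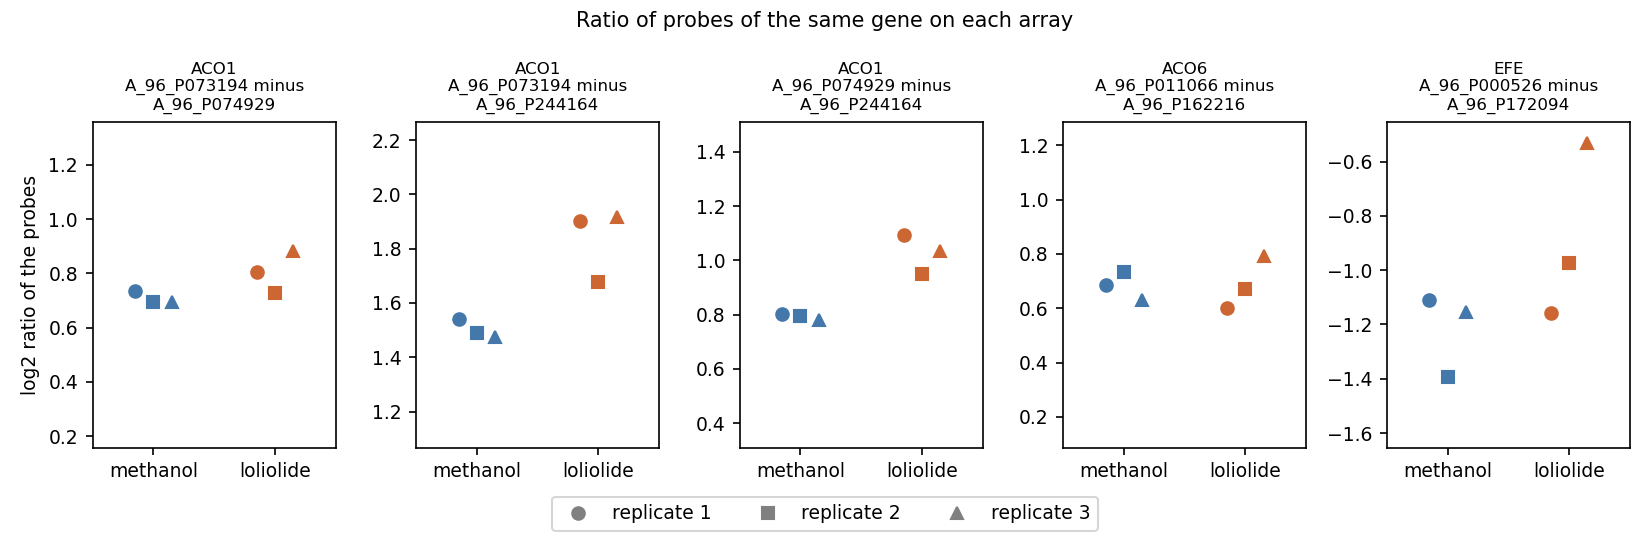
Log2 ratio of the probes of the same gene (vertical axis, each panel spanning 1.2 log2 units) on each array, for the 5 pairs of ACO1, ACO6 and EFE. The loliolide arrays lie above the methanol arrays in the 2 pairs that contain A_96_P244164 of ACO1.

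For each of these genes, the named genes with the nearest profile over the 6 arrays were found among 810 candidate genes. Distance was the root mean square difference of centred log2 values. The brightest tested probe stood for each gene, A_96_P073194 for ACO1 and A_96_P172094 for EFE. For ACO1 they were Eix1, a receptor-like protein gene, at 0.03 and PLDb1, a phospholipase D gene, at 0.07, against a median of 0.31 over the candidates. ACO6 was nearest to OPT1 at 0.03 and to JERF1, an ERF transcription factor gene, at 0.03, with a candidate median of 0.19. ACO4 was nearest to PTI6, also an ERF factor gene, and TAL, both at 0.05. EFE was nearest to NAC1 at 0.06 and PAT at 0.07. The nearest profiles to E8 were farther away, LAX4 at 0.09 and TIP at 0.11. With 6 arrays these distances describe the profiles and are given without a test. They hold for single probes. The PTI6 probe used differed by 0.19 between the groups and its 2 other probes by -0.02 and -0.10. That of JERF1 differed by 0.12, and 5 of its 6 other probes were below 0.

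The other ethylene genes give the setting of the ACC oxidases. A list of genes of ethylene synthesis, perception, signalling and response had 35 genes with a matched probe, of which 31 could be tested by their brightest detected probe. Of these 31 genes, 1 rose, 0 fell and 30 did not pass (limma), against 0.783% of all tested probes called. At an unadjusted limma p under 0.05 it was 6 of the 31 genes, against 20.1% of all tested probes. The 6 include ACS3, which entered the test through the loliolide group alone. With all 6 arrays required to be well above background it was 5 of 30 genes, against 7036 of 36143 probes. The median log2 difference was 0.15, with 27 of 31 above 0 beside 60.8% of all tested probes, but -0.15 with 5 of 31 above 0 under the spike-in scaling. The direction also depended on the probe, since 35 of the 54 other tested probes of these genes were below 0. These include 8 of 9 for SAHH, 6 of 8 for SAM1 and 5 of 6 for JERF1. Probes of the same gene are not separate observations.

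Among the synthesis genes, the 1 that rose was ACS2, an ACC synthase gene. It read -3.27, -3.16 and -3.43 with methanol and -2.49, -2.54 and -2.47 with loliolide, 1.73-fold higher (SE 0.10 on the log2 scale, limma adjusted p = 0.0319). Its loliolide arrays all lay above its methanol arrays, and its other probe differed by 0.95 (limma adjusted p = 0.110). The call was lost without each array in turn and with each of the 5 other scalings or background corrections. ACS3, another ACC synthase gene, read -7.26, -7.22 and -6.59 with methanol and -6.69, -6.59 and -5.99 with loliolide, with groups that overlapped. It was well above background on 1 of the 3 methanol arrays and all 3 loliolide arrays, so it entered the test through the loliolide group alone, and no fold is given. Without it 26 of 30 genes were above 0. The 5 other tested synthesis genes, SAM1, SAHH, EOL1, ACS1A and ACS6, differed by 0.02 to 0.16 without passing, by their brightest probes. The other probes of SAHH and SAM1 mostly had means below 0, with 8 of 9 for SAHH and 6 of 8 for SAM1, and none of them passed at a limma adjusted p of 0.05. Loliolide replicate 3 was the lowest of the 6 arrays for each of these probes below 0. A_96_P161855 of SAM1 read 1.62, 1.62 and 1.72 with methanol and 1.82, 1.56 and 1.01 with loliolide. All 3 loliolide arrays lay below methanol for A_96_P173469 and A_96_P237477 of SAHH, and the groups overlapped for the others below 0.

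None of the 6 receptor genes passed, and all 6 had differences above 0, of 0.12 to 0.50, against 60.8% of all tested probes above 0. With the spike-in scaling 2 of the 6 were above 0. LOC544279, which has the synonym ETR3, read 0.51, 0.42 and 0.44 with methanol and 0.93, 0.79 and 0.79 with loliolide (difference 0.38, limma adjusted p = 0.109). Its loliolide arrays all lay above its methanol arrays, whereas its 3 other probes, which differed by -0.06, -0.04 and 0.03, had groups that overlapped. ETR6, with a single probe, read -5.33, -5.58 and -4.99 with methanol and -4.68, -4.88 and -4.84 with loliolide. Its difference was 0.50 (limma adjusted p = 0.172), again without overlap on this scale. The ETR6 probe was dim, with an intensity of 23.3 to 35.1 with methanol and 28.6 to 40.8 with loliolide, where the groups overlapped. Its separation, like that of the E8 probe, arose after scaling. The part of the shift of dim probes in it was not tested.

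Downstream of the receptors, 0 of 8 signalling genes and 0 of 10 response factor genes passed. EIL2, a transcription factor gene of the EIN3 type, read 1.32, 1.31 and 1.31 with methanol and 1.58, 1.55 and 1.61 with loliolide (difference 0.27, limma adjusted p = 0.156), while its other probe differed by 0.00. EIN2 differed by 0.19 (limma adjusted p = 0.295). ERF2 was the response factor gene with the smallest unadjusted p and read 1.24, 1.20 and 1.21 with methanol and 1.06, 0.97 and 0.93 with loliolide (difference -0.23, limma adjusted p = 0.216), the loliolide arrays all lying below. ERF4 differed by 0.29 (limma adjusted p = 0.289).

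**Figure D5:**
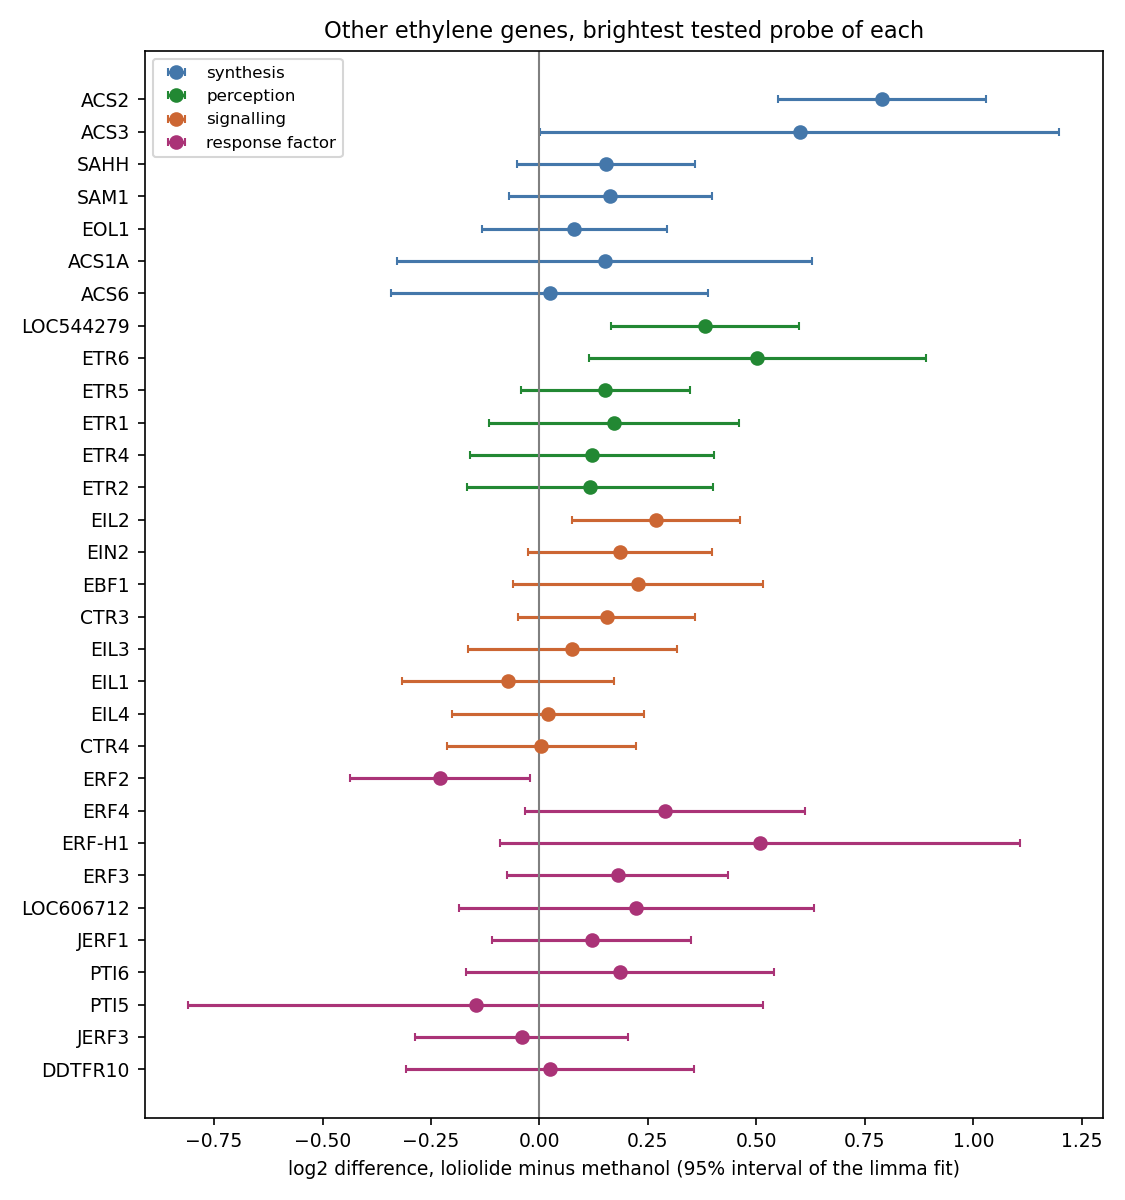
Log2 difference of loliolide minus methanol (horizontal axis) for the 31 other ethylene genes, by role, with the 95% interval of the limma fit. ACS2 at 0.79 is the 1 gene that passed the adjusted threshold, and the others lie from -0.23 for ERF2 upward. ACS3 was well above background on 1 methanol array.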

How the data were processed

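The authors deposited the scanner output of 6 arrays, whose spot intensity was background-subtracted within the array by Agilent Feature Extraction, version 11.5.1.1 per the file headers and 9.1 per the submitters' processing notes. The authors' deposited table of log2 ratios for 27 probes equalled the differences of the scaled signals of numbered pairs up to a constant per pair. Accessions were matched without versions to RefSeq genes of assembly SLM_r2.1, which named 2576 of 43603 probes. The array files name no build, so no coordinates are given.

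From log2 intensity each array's 75th percentile was subtracted, outlier-flagged spots (0 to 5 per array) were left out, and replicate spots were averaged per probe. Testing required that every array of the methanol or of the loliolide group had the probe well above background, which held for 37424 probes. The test was limma's (lmFit, then eBayes; version 3.58.1, R 4.3.3), adjusted by Benjamini and Hochberg's method over these probes, with a threshold of 0.05. The code was tested on simulated data for this comparison with 37414 probes, where 49 of 100 probes changed 1 log2 unit and 91 of 100 changed 2 were called. Every probe of the genes is reported. For the other ethylene genes those that passed and the 2 with the smallest p per role were named, and 2 symbols with another common meaning, GR and TPI, were dropped. The 2 genes nearest in profile were named for each gene. No promoter or protein sequences were used here. Genes and lists were chosen with earlier results of these data known. Alternatives covered scaling, background, filters, variance model, replicate block, the unit of test and each array left out.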

Additional observations from a re-analysis of the deposited data

How the results depend on the processing

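As reported, 0 of the 9 probes of ACC oxidase genes and E8, 293 of all tested probes and 1 of 31 other ethylene genes passed (limma). The count for the 9 probes stayed at 0 in all settings run except with array weights, where it was 1, the E8 probe at 0.40 (limma adjusted p = 0.0336). Array weights also called 3523 probes and 6 other ethylene genes. Over all 18 alternatives the E8 difference ranged from 0.08 to 0.48 (limma adjusted p 0.0336 to 0.800). The count of all probes was 107 with quantile normalisation, 102 with cyclic loess, 189 with median centring, 65 with the spike-in scaling, 95 with normexp, 190 when all 6 arrays had to be well above background and 159 with a variance trend. The count of other ethylene genes was 0 with quantile normalisation, cyclic loess, median centring, the spike-in scaling, normexp and the mean over a gene's probes. The replicate block gave 0 probes, 0 of the 9 and 0 other ethylene genes (5196, 1 and 4 at an unadjusted limma p under 0.05). Same-numbered arrays deviated with correlations of -0.16, -0.14 and -0.46, and the labels do not say that numbers pair samples. Without each array in turn 0 to 105 probes (0 without loliolide replicate 1, where 5928 had an unadjusted limma p under 0.05) and 0 other ethylene genes passed. Directions turned in 8 of 154 comparisons. The 154 include the other filters, the variance trend, the replicate block and the brightest probe per gene. These settings leave a probe's difference as it was, so no direction could turn in them. With the spike-in scaling, which shifts these probes alike, ACO4 read -0.11 and the ACO6 probes -0.18 and -0.19. Without each array A_96_P073194 of ACO1 ranged from -0.22 to 0.13, A_96_P074929 of ACO1 from -0.31 to 0.037 and A_96_P000526 of EFE from -0.33 to 0.28. The cause of these changes was not tested. Signal over background limits ACO5 and E8, and no block for the slide was possible, each slide holding 1 group.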
